A study of Rattus norvegicus with 10 samples.

Results

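The genes described here are 8 transcription factors that sensory neurons are known to induce after injury of their axons: Atf3, Jun, Sox11, Smad1, Klf6, Klf4, Myc and Cebpd. They were chosen by gene name, as the rows of the deposited count table that carry these names, and each name had 1 row among the 30560 genes of the table. RNA had been sequenced from dorsal root ganglia of level L6, which hold the cell bodies of sensory neurons of the hind body, and the rats were of the Sprague Dawley strain, 7 to 8 weeks old. Every rat carried an intrathecal catheter in the lumbar region, was dosed through it 5 days after its implantation under isoflurane, and received the analgesic meloxicam in a slow-release form at both procedures. The groups were 5 libraries of rats given phosphate-buffered saline (PBS) and 5 of rats given SCN9A_2544, a divalent siRNA (small interfering RNA) against Scn9a, at 0.75 mg, all labelled with a timepoint of 14 days, and the labels do not say whether these count from the surgery or from dosing. The comparison stated by the series is SCN9A_2544 against PBS and asks how specific the siRNA was. Both groups had surgery and a catheter, no ganglia of unoperated rats or of rats given another siRNA were analysed here, and the labels do not say that each library was 1 animal.

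When the peripheral axon of a sensory neuron is cut or crushed, kinases carried back from the axon activate c-Jun, and cytokine and bone morphogenetic protein signals reach the nucleus through STAT and SMAD proteins. The transcription factors induced in this way change the neuron from signalling to regrowth, with a rise of growth proteins and of neuropeptides such as galanin and neuropeptide Y. ATF3 is widely used as a marker of injured sensory neurons. Several of these factors are also made by other cells of the ganglion: Jun by Schwann cells that respond to nerve damage, and Cebpd, Klf4, Klf6 and Myc by macrophages, endothelial cells and fibroblasts. In RNA of whole ganglia, fewer cells of a type and less RNA per cell cannot be told apart.

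Between 11832400 and 15420000 estimated counts were assigned per library, and 15186 genes had enough counts to be tested, the 8 transcription factors among them. Scn9a, the target, stood between 132 and 257 CPM (read counts relative to the library total, after TMM scaling) in PBS libraries and between 44.6 and 103 CPM in treated libraries, so the groups did not overlap. Pan-neuronal genes were lowest in SCN9A_2544 replicate 3, PBS replicate 3 and PBS replicate 5, with list means of 8.28, 8.48 and 8.78 log2 CPM, against 9.17 to 9.59 in the other 7 libraries, so these 3, called neuron-poor here, were also left out of the fit as a check. By edgeR's quasi-likelihood test, with p-values adjusted by Benjamini-Hochberg across the 15186 genes, 0 of the 8 transcription factors passed an adjusted p of 0.05 (0% of all genes tested did), and DESeq2 also called 0 of the 8 (0.0945% of all genes it adjusted). The target Scn9a did not pass in the edgeR fit either, with a log2 fold change of -1.03 and an adjusted p of 0.963. Failing this threshold is therefore not a sign that a gene was unchanged. An unadjusted edgeR p under 0.05 was reached by 3 of the 8, Jun, Sox11 and Atf3, all with the higher mean in treated ganglia, against 2.5% of all genes tested in that direction and 0 of the 8 in the other, against 1.73%. The count of all genes at that level, 642 in both directions together, rested on single libraries, being 1642 without PBS replicate 4, 991 without SCN9A_2544 replicate 3, 406 without SCN9A_2544 replicate 1 and 385 without PBS replicate 5, while the count among the 8 was between 2 and 4 with any 1 library left out. A log2 fold change above 0 was fitted for 7 of the 8 and for 53.4% of all genes tested, and the median was 0.26 for the 8 and 0.02 for all genes. CPM values are not divided by transcript length, so levels are compared between libraries and not between genes.

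**Figure D1:**
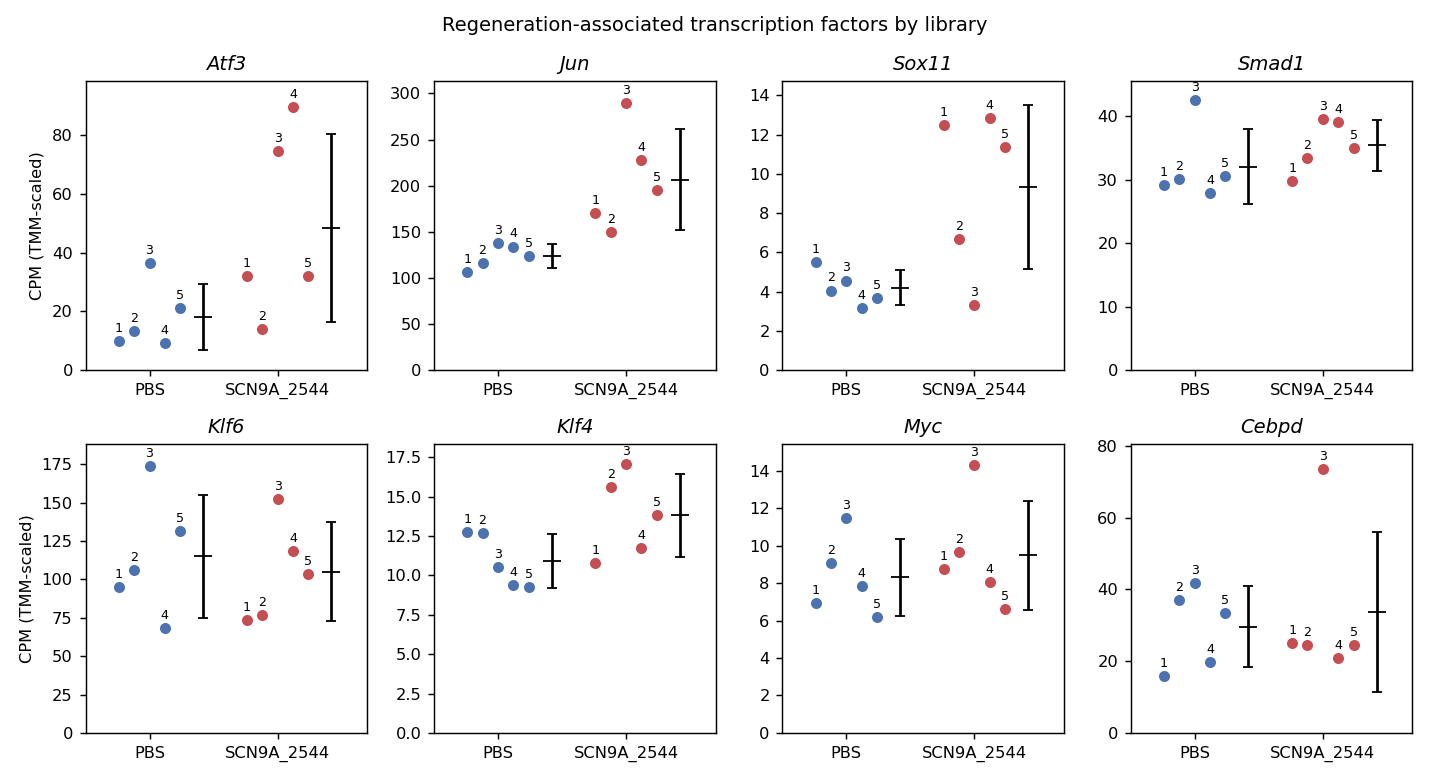
CPM of each of the 8 transcription factors (vertical axis, linear from 0) in the 5 PBS libraries (blue) and the 5 SCN9A_2544 libraries (red), with the replicate number beside each point and the mean with its SD in black (n = 5). Jun is the gene whose groups do not overlap, Sox11 is high in SCN9A_2544 replicates 1, 4 and 5 and low in replicate 3, and Cebpd has 1 high library, SCN9A_2544 replicate 3.

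Jun (ENSRNOG00000026293) encodes c-Jun, the AP-1 subunit that is phosphorylated by the JNK kinases after axon injury. It stood at 106, 116, 138, 134 and 124 CPM in PBS replicates 1 to 5, and at 170.5, 149, 289, 228 and 195 CPM in SCN9A_2544 replicates 1 to 5. Every treated library lay above every PBS library, which held for 1 of the 8 genes and for 0.454% of all genes tested in that direction, while 0 of the 8 and 0.211% of all genes lay wholly below. The means were 124 ± 13.0 and 206 ± 54.8 CPM (SD, n = 5 each). The edgeR log2 fold change was 0.74 (SE 0.18, 95% interval 0.35 to 1.13), with an adjusted p of 0.963. The spread widened with the level: the coefficient of variation was 10.5% in PBS and 26.5% in treated libraries.

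Atf3 (ENSRNOG00000003745) encodes a factor of the ATF and CREB family that pairs with c-Jun. It stood at 9.89, 13.4, 36.6, 9.40 and 21.2 CPM in PBS replicates 1 to 5, and at 31.9, 14.0, 74.6, 89.5 and 32.1 CPM in SCN9A_2544 replicates 1 to 5. The groups overlapped: SCN9A_2544 replicates 3 and 4 lay above every PBS library, replicates 1 and 5 lay below PBS replicate 3, and replicate 2 was close to PBS replicate 2. Atf3 varied widely within both groups, with the highest library 3.90 times the lowest in PBS and 6.39 times in treated ganglia. The means were 18.1 ± 11.4 and 48.4 ± 32.0 CPM (SD, n = 5 each), and the edgeR log2 fold change was 1.42 (SE 0.51, 95% interval 0.30 to 2.53), with an adjusted p of 0.963. Without SCN9A_2544 replicate 4 it was 1.07, and by limma voom with library weights it was 0.91, and in both of these fits the unadjusted p was above 0.05. The unadjusted p was also above 0.05 with the macrophage or satellite glia mean as covariate, described below.

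Sox11 (ENSRNOG00000030034) encodes a SoxC family factor of developing neurons that is re-expressed after nerve injury. It stood at 5.49, 4.06, 4.57, 3.16 and 3.67 CPM in PBS replicates 1 to 5, and at 12.5, 6.66, 3.34, 12.8 and 11.4 CPM in SCN9A_2544 replicates 1 to 5. Of the treated libraries 4 lay above every PBS library, and replicate 3 lay below all PBS libraries but replicate 4. These values rest on few reads, 37 to 204 counts per library. The means were 4.19 ± 0.893 and 9.34 ± 4.17 CPM (SD, n = 5 each), and the edgeR log2 fold change was 1.15 (SE 0.34, 95% interval 0.41 to 1.89), with an adjusted p of 0.963. Its log2 fold change lay between 1.00 and 1.48 in the 21 alternative settings tried, all with an unadjusted p under 0.05 and none with an adjusted p under 0.05.

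**Figure D2:**
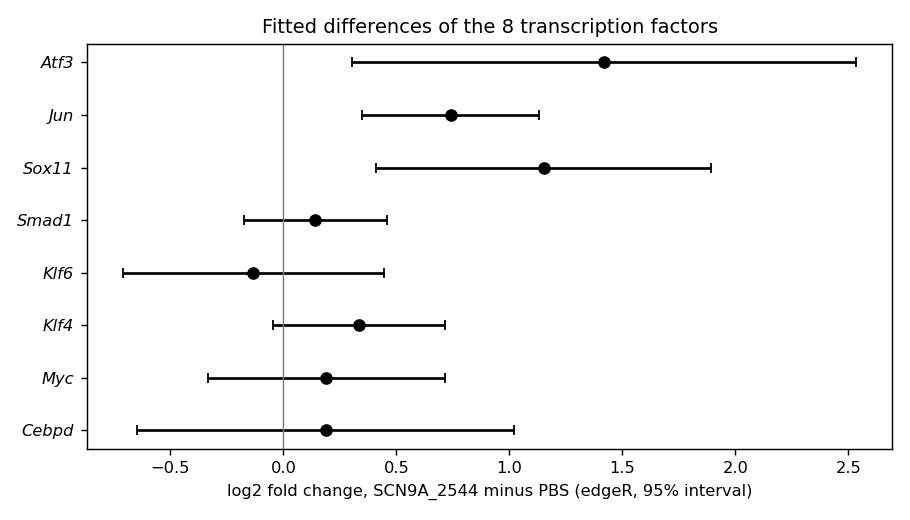
Fitted log2 fold change of SCN9A_2544 against PBS for each of the 8 transcription factors (horizontal axis), with points at the edgeR estimate and bars for the unadjusted 95% interval (5 libraries a group). The intervals of Atf3 (0.30 to 2.53), Jun (0.35 to 1.13) and Sox11 (0.41 to 1.89) lie above 0, and those of the other 5 genes include 0.

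The promoters, taken from RefSeq on build GRCr8 as 250 bases before to 50 after the annotated start, could be matched for 4 of the 8 genes: Sox11, Smad1, Klf6 and Klf4. Those of Sox11, the matched gene with the largest log2 fold change, and of Klf6, the gene with the lower mean in treated ganglia, are printed 5′ to 3′ on the strand of the gene. Capitals mark matches, on either strand, to TGANTCA (AP-1), TGACGTCA (cyclic AMP response element), CACGTG (the E-box bound by MYC with MAX), CCACCC (KLF), GGCGCC (BMP-activated SMADs), AACAAT (SOX) or TTGNNNAA (C/EBP).
Sox11 promoter, minus strand, chr6:49738745-49739044: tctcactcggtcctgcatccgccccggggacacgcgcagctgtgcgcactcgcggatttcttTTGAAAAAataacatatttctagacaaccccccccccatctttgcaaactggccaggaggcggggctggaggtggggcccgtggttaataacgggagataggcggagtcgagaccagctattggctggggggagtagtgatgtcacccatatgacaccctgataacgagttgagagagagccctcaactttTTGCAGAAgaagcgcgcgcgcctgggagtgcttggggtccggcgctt
Klf6 promoter, minus strand, chr17:69458429-69458728: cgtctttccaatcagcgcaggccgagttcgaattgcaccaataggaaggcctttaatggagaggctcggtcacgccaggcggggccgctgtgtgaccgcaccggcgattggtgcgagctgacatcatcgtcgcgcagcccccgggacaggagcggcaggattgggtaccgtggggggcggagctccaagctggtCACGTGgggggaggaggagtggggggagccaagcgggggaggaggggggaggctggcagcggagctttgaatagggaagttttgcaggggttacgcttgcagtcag
The Sox11 window held 2 matches, both to TTGNNNAA, which 37.2% of all 33469 promoters of this length hold. The Klf6 window held 1 match, to CACGTG, which 6.42% of promoters hold. No match to any of the 7 motifs lay in the windows of Smad1 and Klf4, and those of AP-1 and of the cyclic AMP response element, held by 7.33% and 1.83% of all promoters, were in 0 of the 4 windows. The motifs of KLF, SMAD and SOX proteins, held by 29.4%, 11% and 11.7% of promoters, were in 0 of the 4 as well. The shorter motif TGACG, which is part of the cyclic AMP response element, is not capitalised and occurs in 21.2% of promoters, was found once, in the Smad1 window. These matches are a description of the letters and were not tested for function.

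Smad1 (ENSRNOG00000018483) encodes the transducer of bone morphogenetic protein signals. It stood at 29.1, 30.1, 42.5, 27.9 and 30.5 CPM in PBS replicates 1 to 5, and at 29.8, 33.4, 39.5, 39.1 and 35.0 CPM in SCN9A_2544 replicates 1 to 5. The groups overlapped throughout, and the highest library of all was PBS replicate 3. The log2 fold change was 0.14 (SE 0.15, 95% interval -0.18 to 0.46) with an edgeR adjusted p of 0.967, and was 0.26 without PBS replicate 3 and 0.07 without SCN9A_2544 replicate 3.

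Klf6 (ENSRNOG00000016885) and Klf4 (ENSRNOG00000016299) encode zinc finger factors that act in opposite directions on axon growth in fish and mouse retinal neurons, Klf6 promoting and Klf4 restraining it. Klf6 stood at 95.2, 106, 174, 68.3 and 131 CPM in PBS replicates 1 to 5, and at 73.6, 77.0, 152, 118 and 104 CPM in SCN9A_2544 replicates 1 to 5. The treated libraries lay within the range of the PBS libraries, and replicate 3 was the highest of each group. The Klf6 log2 fold change was -0.13 (SE 0.26, 95% interval -0.71 to 0.44) with an edgeR adjusted p of 0.977, and it was 0.07 without PBS replicate 3 and 0.02 without the 3 neuron-poor libraries. Klf4 stood at 12.8, 12.7, 10.5, 9.40 and 9.28 CPM in PBS replicates 1 to 5, and at 10.8, 15.6, 17.1, 11.7 and 13.8 CPM in SCN9A_2544 replicates 1 to 5. For Klf4, 3 treated libraries lay above every PBS library and the other 2 within their range. The Klf4 log2 fold change was 0.34 (SE 0.17, 95% interval -0.05 to 0.72), with an edgeR adjusted p of 0.963. It was 0.21 without SCN9A_2544 replicate 3 and 0.13 without the 3 neuron-poor libraries.

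Myc (ENSRNOG00000004500) encodes the growth regulator that binds DNA with MAX. It stood at 6.94, 9.05, 11.5, 7.86 and 6.21 CPM in PBS replicates 1 to 5, and at 8.75, 9.66, 14.3, 8.06 and 6.60 CPM in SCN9A_2544 replicates 1 to 5. The groups overlapped except for SCN9A_2544 replicate 3. The Myc log2 fold change was 0.19 (SE 0.24, 95% interval -0.33 to 0.72) with an edgeR adjusted p of 0.975, and without SCN9A_2544 replicate 3 it turned to -0.04.

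Cebpd (ENSRNOG00000050869) encodes C/EBP delta, a factor of inflammatory and acute phase responses. It stood at 15.9, 37.2, 41.7, 19.7 and 33.5 CPM in PBS replicates 1 to 5, and at 25.1, 24.6, 73.7, 20.8 and 24.5 CPM in SCN9A_2544 replicates 1 to 5. The treated group consisted of 4 libraries in a narrow band inside the PBS range and of replicate 3 above every other library. The treated mean, 33.7 CPM, was above the PBS mean of 29.6 CPM, while the treated median, 24.6 CPM, was below the PBS median of 33.5 CPM. The log2 fold change was 0.19 (SE 0.38, 95% interval -0.65 to 1.02) with an edgeR adjusted p of 0.977, and without SCN9A_2544 replicate 3 it turned to -0.36.

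The 8 genes did not share 1 order of the libraries. SCN9A_2544 replicate 3 was the highest of the 10 libraries for 4 genes, Jun, Klf4, Myc and Cebpd, and the second highest for Atf3, Smad1 and Klf6, but ranked ninth for Sox11. SCN9A_2544 replicate 4 was the highest for Atf3 and Sox11 and the second highest for Jun, yet ranked eighth for Cebpd. PBS replicate 3 was the highest for Klf6 and Smad1 and the second highest for Myc and Cebpd. PBS replicate 4, the library with the lowest total count, was the lowest for 4 genes, Atf3, Sox11, Smad1 and Klf6. Over both groups, the libraries numbered 3 were thus high for most of the 8 genes, and they were also the 2 libraries of lowest pan-neuronal mean and highest Schwann cell and myelin mean, 9.53 log2 CPM in PBS replicate 3 and 9.65 log2 CPM in SCN9A_2544 replicate 3. The part of this difference in cell content in the order of the libraries was not tested.

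**Figure D3:**
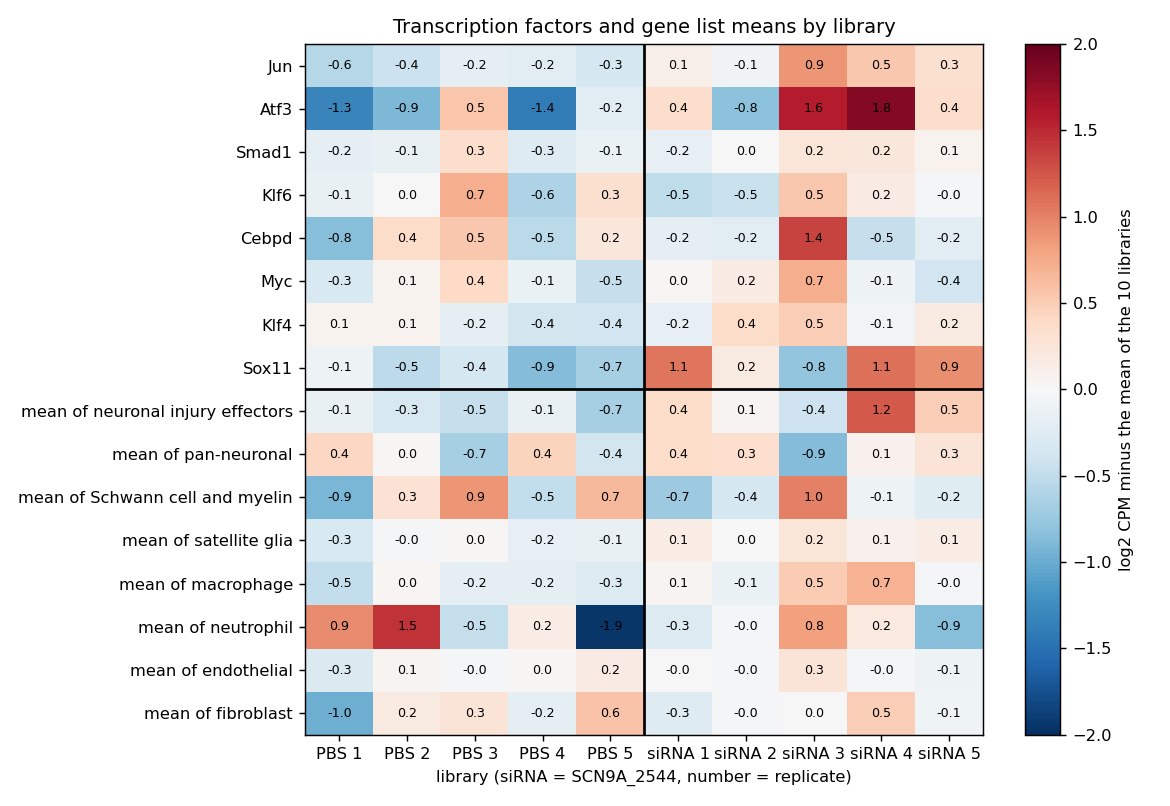
Log2 CPM of the 8 transcription factors and mean log2 CPM of 8 gene lists (rows), each minus its mean over the 10 libraries (columns; siRNA stands for SCN9A_2544), on a colour scale from -2 to 2. SCN9A_2544 replicate 3 is positive for every transcription factor except Sox11 and negative for the neuronal lists, while Sox11 and the injury effectors are highest in SCN9A_2544 replicate 4.

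Genes known as effectors of the neuronal injury response had the same direction of means as Atf3, Jun and Sox11. Of 28 such genes named, 24 were tested. Of these, 23 had a log2 fold change above 0 and 1 below, against 53.4% above 0 of all genes tested. The median was 0.59, against 0.02 for all genes tested. In the edgeR fit 0 passed the adjusted threshold, 8 had an unadjusted p under 0.05 with the higher mean in treated ganglia and 0 in the other direction, against 2.5% and 1.73% of all genes tested, and 2 did not overlap between the groups, both higher, against 0.454% of all genes. The 4 with the smallest p were Ecel1, an endopeptidase of injured neurons, Il1rap, the co-receptor of interleukin-1, and the neuropeptide genes Npy and Gal, with log2 fold changes of 2.28 (SE 0.46), 0.75 (SE 0.16), 3.59 (SE 0.94) and 3.20 (SE 0.88). DESeq2 called 4 of the list at an adjusted p of 0.05, all higher, against 0.0945% of all genes it adjusted: Ecel1, Il1rap, and Vip and Crisp3, both too low in counts for the edgeR fit and named after their values were seen. This list overlaps with one that an earlier description of these libraries had shown to be higher, so its direction is not independent evidence.

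Within the treated group the neuropeptide genes shared their highest and their 2 lowest libraries with Sox11, and not with Jun or Cebpd. Npy stood at 35.4, 4.56, 1.97, 98.5 and 14.7 CPM in SCN9A_2544 replicates 1 to 5, and at 0.667 to 4.36 CPM in PBS. Gal stood at 7.36, 2.65, 1.63, 60.6 and 10.8 CPM in the same treated libraries, and at 1.12 to 2.56 CPM in PBS. Both genes, like Sox11, were lowest of the treated libraries in replicate 3, next lowest in replicate 2 and highest in replicate 4. Gap43, the growth cone protein, had its highest value in replicate 4 (975 CPM) and its lowest in replicate 3 (193 CPM). In contrast Fos, an immediate early AP-1 subunit, stood at 48.5 CPM in SCN9A_2544 replicate 3 and between 4.10 and 12.5 CPM in the other 9 libraries. Ecel1 did not overlap between the groups, with 3.81 to 18.3 CPM in treated and 0.843 to 2.54 CPM in PBS libraries, and its lowest treated value was again replicate 3.

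**Figure D4:**
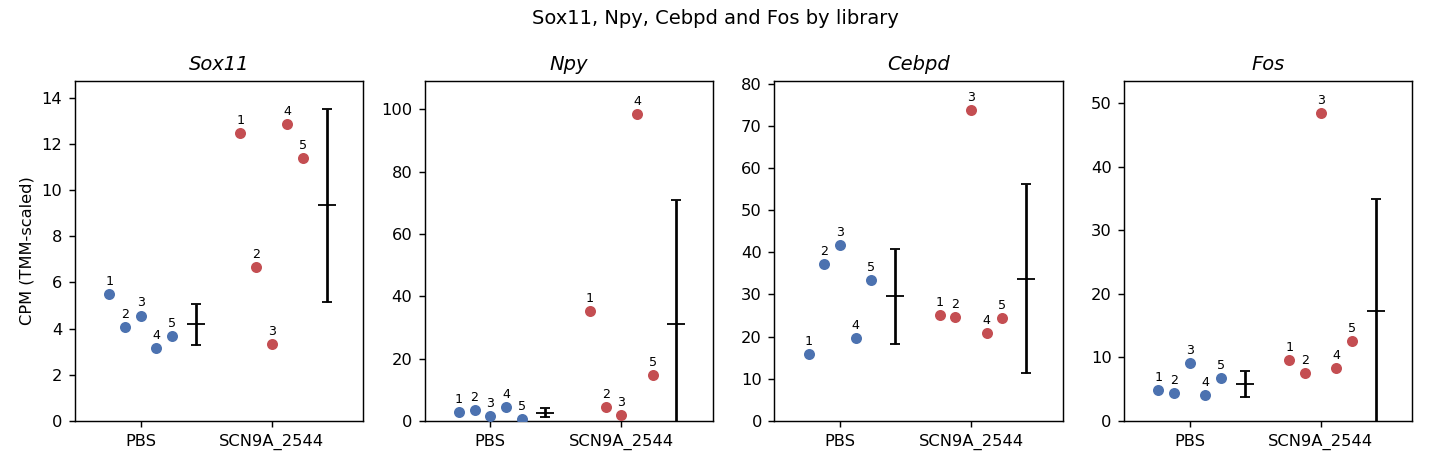
CPM by library (vertical axis, linear from 0) for Sox11, the neuropeptide gene Npy, Cebpd and the immediate early gene Fos, in PBS (blue) and SCN9A_2544 (red) libraries with replicate numbers, and mean with SD in black (n = 5; parts of a bar below 0 are not drawn). SCN9A_2544 replicate 3 is the lowest treated library for Sox11 (3.34 CPM) and Npy (1.97 CPM) and the highest library for Cebpd (73.7 CPM) and Fos (48.5 CPM).

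Relatives of the 8 factors were examined in lists by family, with the 8 left out, and 0 relatives passed by edgeR or by DESeq2. Of all genes, 0% passed by edgeR and 0.0945% by DESeq2. A log2 fold change above 0 was fitted for 53.4% of all genes tested. An unadjusted edgeR p under 0.05 was reached by 2.5% of them with the higher mean in treated ganglia and by 1.73% with the lower. Of 13 AP-1 and ATF genes tested, 9 had a log2 fold change above 0, with a median of 0.20, and 2 had an unadjusted p under 0.05, Fosb at 1.41 (SE 0.37) and Fos at 1.57 (SE 0.52), while Junb, next in order, had 0.60 (SE 0.29). The SoxC relatives of Sox11, Sox12 and Sox4, had log2 fold changes of 0.47 (SE 0.22) and 0.67 (SE 0.38). Sox4 did not vary like Sox11: it stood at 194 CPM in SCN9A_2544 replicate 3, where Sox11 was low, and at 35.2 to 65.0 CPM in the other 9 libraries. Of 7 other SMAD genes, 5 lay above 0, with a median of 0.08 and none at an unadjusted p under 0.05, Smad2 having the smallest p at -0.21 (SE 0.15). Of 12 other KLF genes, 9 lay above 0, with a median of 0.25 and 1 at an unadjusted p under 0.05, Klf2, a factor of endothelial and immune cells, at 0.73 (SE 0.27). Of 11 other genes of the MYC network, 6 lay above 0, with a median of 0.09, and Mnt, which competes with MYC for MAX, at 0.42 (SE 0.16) was the 1 with an unadjusted p under 0.05. Of 3 other C/EBP genes, 2 lay above 0, with a median of 0.03, and Cebpb, a factor of macrophages and of injured neurons, was at 0.77 (SE 0.26) with the 1 unadjusted p under 0.05. SCN9A_2544 replicate 3 was the highest library for Fosb (4.56 CPM), Fos (48.5 CPM), Sox12 (129 CPM), Klf2 (34.2 CPM) and Cebpb (22.3 CPM). For each of these genes SCN9A_2544 replicate 4 lay within the PBS range.

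Other factors linked to injury and the signals upstream were examined in the same way. Of 17 rows of other injury transcription factors and cofactors, in which Mafk and Ep300 have 2 identifiers each, 13 lay above 0 (53.4% of all genes did), with a median of 0.26, and 0 passed by edgeR. The groups did not overlap for 2 of them, both higher, against 0.454% of all genes. These were Egr1, an immediate early factor, with a log2 fold change of 1.34 (SE 0.28), and Stat3, the transducer of interleukin-6 family cytokines, with 0.37 (SE 0.14). Egr1 was also called by DESeq2 (adjusted p = 0.0188), which called 0.0945% of all genes it adjusted. Stat3 ranged from 208 to 293 CPM in PBS and from 300 to 336 CPM in treated libraries. Of 17 upstream ligands, receptors and kinases, 12 lay above 0, with a median of 0.19, and 0 passed by edgeR. Socs3, the inhibitor that STAT3 induces, had the smallest p, at 1.26 (SE 0.28), did not overlap between the groups and was called by DESeq2 (adjusted p = 0.0327). The ciliary neurotrophic factor gene Cntf, made by Schwann cells, was at -1.07 (SE 0.45), and the cytokine gene Lif at 1.31 (SE 0.70). The kinase genes Map3k12 and Map3k13, which encode DLK and LZK, had values of 0.24 (SE 0.17) and 0.39 (SE 0.36).

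The genes most like Atf3 and Jun over the libraries were taken by the Pearson correlation of log2 CPM over all 10 libraries, as a description without a test, since they were picked as the highest of all genes tested. Those nearest to Atf3 were Ifi30, a lysosomal reductase of antigen-presenting cells, Inpp5b, a phosphatase of inositol phosphates, and Csf1, the macrophage growth factor, which is also made by injured sensory neurons. Their correlations were 0.94, 0.93 and 0.92. Those nearest to Jun were Trem2, a receptor of macrophages and microglia, the complement gene C1qb, and Scamp4, a carrier membrane protein, with correlations of 0.98, 0.95 and 0.93. All pairs share the libraries and their composition, and the group difference enters each value.

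Of 13 lists of cell type markers, 4 differed in their mean between the groups at an unadjusted exact permutation p under 0.05, and 0 after adjustment over the 13. The mean log2 CPM of 23 macrophage markers was 3.74 ± 0.19 with PBS and 4.19 ± 0.36 with the siRNA (SD, n = 5 each), a difference of 0.44 with a two-sided exact permutation p = 0.0317 and an adjusted p of 0.103 over the 13 lists. Of these markers 20 lay above 0 (53.4% of all genes tested did) and 3 below. Their summed level ranged from 568 to 838 CPM in PBS and from 642 to 1404 CPM in treated libraries. The groups did not overlap for 6 that were higher, against 0.454% of all genes, and for 1 that was lower, against 0.211%. The lower one was Lyve1, at -0.78 (SE 0.22). C1qa had the smallest p, at 1.03 (SE 0.20), while Ptprc was at 0.20 (SE 0.29) and Cd163 at -0.53 (SE 0.43). The mean of 13 satellite glia markers differed by 0.25 (exact permutation p = 0.0159, adjusted 0.103), with 10 above 0 and 3 below, and a summed level of 5360 to 6206 CPM in PBS and 6163 to 6778 CPM in treated libraries. Most of that sum was Apoe, with means of 3470 CPM in PBS and 4230 CPM in treated libraries. Hmgcs1, the next largest, went the other way, with means of 1105 and 845 CPM. Of 12 named genes of Schwann cells after nerve damage, 7 were tested, and Olig1, Gdnf, Artn, Uts2b and Fgf5 were not. The mean of the 7 differed by 0.52 (exact permutation p = 0.0238, adjusted 0.103), with all 7 above 0. Their summed level was 516 to 961 CPM in PBS and 827 to 1010 CPM in treated libraries. Ngfr alone had means of 525 CPM in PBS and 718 CPM in treated libraries. Egr1, Ngfr and Gfap of this list also belong to other lists described here, so it is not a separate readout. The only 2 tested fat markers, Fabp4 and Lpl, differed by -1.03 in their mean (exact permutation p = 0.0159, adjusted 0.103), with a summed level of 12.4 to 59.1 CPM in PBS and 9.41 to 18.9 CPM in treated libraries. The pan-neuronal mean differed by 0.07 (exact permutation p = 0.873), that of Schwann cell and myelin genes by -0.17 (p = 0.706), and those of endothelial, fibroblast and mural markers by 0.03, 0.06 and -0.02. Neutrophil, lymphocyte, muscle and blood markers differed by -0.05, 0.16, 0.19 and -0.02, and the exact permutation p of these 4 and of the endothelial, fibroblast and mural lists was 0.754 or more.

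The differences of Atf3 and Jun depended on which of these list means entered the edgeR fit as a covariate, and that of Sox11 did so less. With the pan-neuronal mean the log2 fold changes were 1.62 (SE 0.35) for Atf3, 0.74 (SE 0.12) for Jun and 1.02 (SE 0.31) for Sox11, with adjusted p-values of 0.301, 0.116 and 0.476. With the macrophage mean they were 0.06 (SE 0.53), 0.38 (SE 0.20) and 1.25 (SE 0.45), and with the satellite glia mean, tried after the data were seen, 0.17 (SE 0.69), 0.31 (SE 0.26) and 1.48 (SE 0.56). The macrophage and satellite glia means had themselves the higher group mean in treated ganglia, so such a fit shares the group difference between both terms. Without the 3 neuron-poor libraries, also left out after the data were seen, Atf3 was at 1.92 (SE 0.52), Jun at 0.62 (SE 0.16) and Sox11 at 1.32 (SE 0.29). In these fits too, 0 of the 8 passed an adjusted p of 0.05, against 0.00659% of all genes tested with the pan-neuronal mean, 0% with the macrophage mean, 0% with the satellite glia mean and 0.0065% without the neuron-poor libraries.

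**Figure D5:**
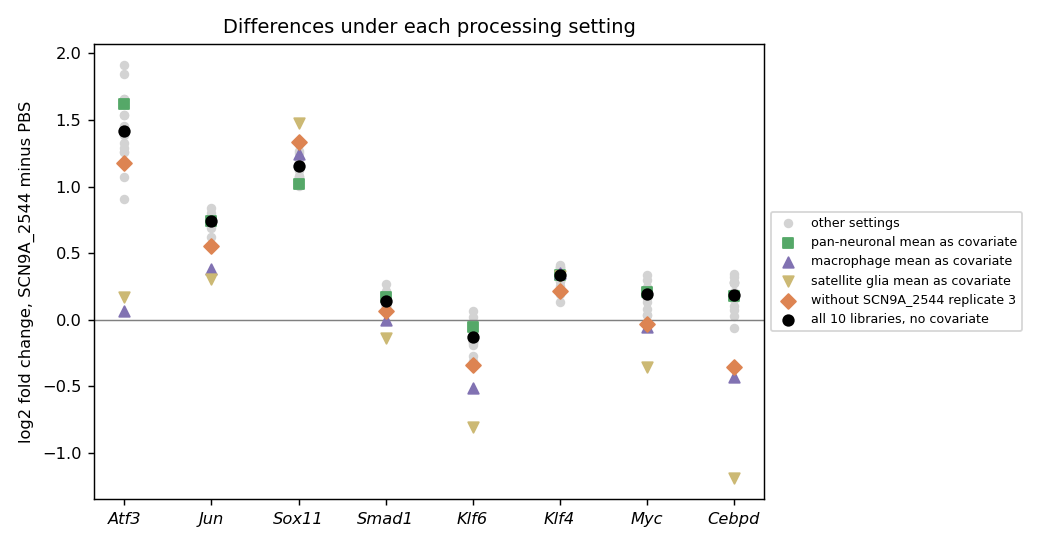
Log2 fold change of SCN9A_2544 against PBS (vertical axis) for each of the 8 transcription factors under the 22 settings tried, with coloured symbols for the fit of all 10 libraries and for 4 alternatives, and grey points for the other 17. Sox11 stays between 1.00 and 1.48, Atf3 spans 0.06 to 1.92, Jun spans 0.31 to 0.84, and Smad1, Klf6, Myc and Cebpd have values on both sides of 0.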

How the data were processed

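RNA of 10 rat L6 dorsal root ganglion samples was selected for poly(A), made into libraries with the NEBNext Ultra II kit and sequenced as paired reads of 150 bases, per the labels' protocols. The values the authors deposited are estimated counts for each gene and library without normalization, and 11.6% to 12.4% of the values in a library are not whole numbers. STAR 2.7.10a, DESeq2 1.44.0 and the genome build mRatBN7.2 are named, without their roles, in the submitters' processing notes. Counting program, annotation and strand setting: not given in the sources used here. Counts were rounded, filtered (filterByExpr, minimum count 10, minimum total 15), scaled with TMM and tested with edgeR 4.0.16 in R 4.3.3 (quasi-likelihood F-test, Benjamini-Hochberg over all genes, threshold 0.05); the SE is the log2 fold change divided by the square root of F. CPM are TMM-scaled, and list means use log2 CPM with a prior count of 2 and two-sided exact permutation tests. The procedure was tested on simulated data. DESeq2 1.42.0 and limma 3.58.1 (voom) were alternatives. No 2 of the 10 libraries agreed within sampling noise (chi-square per gene of 7.81 to 222 over 45 pairs). P-values measure the spread between samples, which may be partly technical.

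The 8 genes, the lists and the rules were chosen with earlier results of these data known. Named genes are the 8, Scn9a, up to 4 genes of the smallest p in each list described, and the 3 genes most correlated with Atf3 and with Jun; other genes were named after their values were seen. Replicate numbers were not taken as pairs.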

Additional observations from a re-analysis of the deposited data

Results flagged for a closer look

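In groups of 5 libraries, 2 of the 16 groups of values of the 8 transcription factors held a library far from the other 4, by the ratio of its gap to the group's range (above 0.71), and chance alone gives about 1 in 20. Cebpd was at 73.7 CPM in SCN9A_2544 replicate 3, with the other treated libraries at 20.8 to 25.1 CPM. Smad1 was at 42.5 CPM in PBS replicate 3, with the other PBS libraries at 27.9 to 30.5 CPM. Among 26 groups of list means, 2 were flagged in the same way, both for SCN9A_2544 replicate 3: the pan-neuronal mean at 8.28 log2 CPM, below the other treated libraries, and the endothelial mean at 4.34 log2 CPM, above them. No explanation of these libraries was tested.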

How the results depend on the processing

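Of the 8 transcription factors, 0 passed an adjusted p of 0.05 in any of the 21 alternatives, and Atf3, Jun, Sox11 and Klf4 kept their direction in all 21. The direction turned for Smad1 with the macrophage mean (-0.0036) or the satellite glia mean (-0.14) as covariate, for Myc with the same covariates (-0.052 and -0.36), and for Cebpd with them (-0.43 and -1.19), by limma voom with library weights (-0.37) and without the 3 neuron-poor libraries (-0.061). Klf6 turned to 0.023 without those 3 libraries. With 1 library left out, Klf6 ran from -0.34 to 0.066, Myc from -0.037 to 0.33 and Cebpd from -0.36 to 0.34. The cause was not tested.

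The count of genes called over the whole table, 0 by edgeR with 642 genes at an unadjusted p under 0.05, became 17 by DESeq2 and 1 by limma voom (ENSRNOG00000070035). With the mean of either pan-neuronal or Schwann cell and myelin genes as covariate it was 1, in both fits the target Scn9a (edgeR adjusted p of 0.0288 and 0.0150). It was also 1 without the neuron-poor libraries (ENSRNOG00000070035). With 1 library left out the count ran from 0 to 1, being 1 without SCN9A_2544 replicate 2 (Stac2) or replicate 3 (ENSRNOG00000070035). Without the filter on low counts, the 642, of 15186 genes, became 985 of the 22236 genes with any count. DESeq2 was given all 30560 genes, of which these 22236 had any count, and gave 967. By limma voom the number was 3175. The 642 became 1503, 1312 and 3502 with the pan-neuronal, Schwann cell and myelin, and satellite glia means as covariates, and ran from 385 to 1642 with 1 library left out. Family, upstream and effector genes called numbered 0 by edgeR and 6 by DESeq2: Egr1, Socs3, Il1rap, Crisp3, Vip and Ecel1. Crisp3 and Vip were not in the edgeR fit.

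With 1 library left out, the difference of list means ran from -0.088 to 0.30 for pan-neuronal genes, -0.45 to 0.029 for Schwann cell and myelin genes, 0.37 to 0.61 for genes of damaged-nerve Schwann cells, 0.33 to 0.53 for macrophages, -0.16 to 0.34 for lymphocytes, -0.54 to 0.31 for neutrophils, -0.040 to 0.077 for endothelial, -0.18 to 0.21 for fibroblast, -0.29 to 0.16 for mural, -0.43 to 0.58 for muscle and -0.52 to 0.29 for blood markers. For satellite glia the difference ran from 0.21 to 0.29 and for fat markers from -1.18 to -0.95. The unadjusted exact permutation p of both lists stayed at 0.0317 or less. Without 1 library the exact permutation p was above 0.05 for macrophages in 6 of 10 cases, at 0.0873, 0.0714, 0.0635 and 0.0714 without PBS replicates 1, 3, 4 and 5 and at 0.0556 without SCN9A_2544 replicate 3 or 4, and reached 0.0556 for damaged-nerve Schwann cell genes (without PBS replicate 1, 2 or 4).

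Replicate numbers are shared by both groups, but the same-numbered libraries did not deviate together in every pair (correlations from -0.0063 to 0.57, and 2 of 5 PBS libraries correlated best with their own number). With the replicate block 0 genes and 0 of the 8 were called, 753 genes had an unadjusted p under 0.05, and Atf3, Jun and Sox11 were at 1.29, 0.71 and 1.04. Sox11 rests on as few as 37 counts in a library, and the 95% interval of Cebpd, -0.65 to 1.02, includes a difference of the size of Jun's, 0.74.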
